A study of Mus musculus with 12 samples.

Results

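The genes examined here are 43 genes of the crypt stem cell and of the Wnt pathway. The list was drawn up from known gene functions, with earlier results of these data known. The list holds 12 markers of the cycling crypt base stem cell, 3 markers of a reserve stem cell, 8 Wnt target genes, 10 Wnt inhibitors, 5 receptors and 5 transducers or transcription factors. Of the 43 genes, 42 had a probe on the array, 61 probes in all out of 55681, and 37 were bright enough to be tested among 24245 genes. They were measured in colonic organoids, which are crypts grown in Matrigel as a culture enriched in stem cells. All mice were C57BL/6. The VDR KO calcitriol group was grown from 3 mice labelled VDR KO, which lack the vitamin D receptor, and received 1,25(OH)2D3 (calcitriol), the hormone that binds this receptor, at 100 nM. The VDR KO vehicle group came from the same 3 VDR KO mice and received ethanol. The wt calcitriol group came from 3 wild-type mice and received the hormone at 100 nM, and the wt vehicle group came from the same 3 wild-type mice and received ethanol. In each genotype mouse 1 was labelled a 2 month old male, mouse 2 a 3 month old female and mouse 3 a 2 month old female. The hormone was renewed every 48 h. On its duration the labels disagree, with 72 h in the design text and 62 h in the descriptions. Each culture gave 1 array, which makes 12 arrays in 4 groups of 3.

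Wnt ligands bind Frizzled receptors together with the co-receptors Lrp5 and Lrp6, and the beta-catenin protein that is then spared from breakdown enters the nucleus and switches on target genes through TCF and LEF proteins. At the bottom of the intestinal crypt this signal keeps stem cells dividing, and R-spondins strengthen it by binding Lgr4 and Lgr5 and removing the ubiquitin ligases Rnf43 and Znrf3, which clear Frizzled receptors from the surface. Several targets, among them Axin2, Nkd1 and Notum, feed back on the pathway as inhibitors. In human colon carcinoma cells the vitamin D receptor is known to bind beta-catenin and to dampen the transcription of Wnt targets. The comparisons ask whether the hormone or the loss of its receptor moved stem cell markers, Wnt targets or Wnt inhibitors in normal colon epithelium.

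Levels are log2 signals relative to the 75th percentile of the same array, so that 0 is that percentile itself, and a difference of 1 is a doubling. The 75th percentile was 580.6 to 790.5 units on the 12 arrays. The vehicle array of wt mouse 2 stood apart in its dim spots: the scanner called 72.8% of them well above background there, and 55.0% to 66.4% elsewhere. The sex labels were not used, because the Y-linked Ddx3y read 0.56 to 0.75 in the 4 cultures of mice numbered 2 (labelled female) and -8.18 to -6.83 in all 8 others, those labelled male included. Vdr, the gene deleted in the knockout, averaged -0.09 ± 0.41 in VDR KO calcitriol, -0.01 ± 0.31 in VDR KO vehicle, 1.02 ± 0.19 in wt calcitriol and 1.60 ± 0.44 in wt vehicle (SD, n = 3 each), with no overlap between the genotypes. Its probe still gave signal in the knockout; the position of the probe relative to the deletion is not given in the sources used here. Each of the 12 arrays read all 9 epithelial and all 7 colon markers examined as well above background. Of 8 fibroblast markers 1 was, and Lum and Pdgfra were on no array; of 3 smooth muscle markers none was on all 12. Of 7 immune markers 4 were above background on all arrays, with a summed linear signal, in multiples of the 75th percentile, of 11.5 to 24.6 in VDR KO calcitriol, 11.0 to 14.8 in VDR KO vehicle, 15.3 to 20.4 in wt calcitriol and 10.9 to 17.0 in wt vehicle. The 12 arrays lay on 3 slides: 2 VDR KO vehicle arrays on the first, 1 VDR KO calcitriol and 2 wt vehicle arrays on the second, and the other 7 (2 VDR KO calcitriol, 1 VDR KO vehicle, 3 wt calcitriol and 1 wt vehicle) on the third, so slide and treatment overlap.

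Of the 37 genes tested, 33 were well above background on all 12 arrays. The other 4 were Sfrp5 on 11 arrays, Nkd1 on 9, Lef1 on 8 and Rgmb on 7. The 5 genes too dim to test all encode secreted proteins of the inhibitor group: Dkk1 and Dkk2, which block Lrp5 and Lrp6, were well above background on 0 arrays, Dkk3 on 2, and Wif1 and Sfrp1, which bind Wnt ligands, on 1 each. Olfm4, a stem cell marker of the human colon and the mouse small intestine, had no probe with a matched accession and has no value here. The spread between mice differed from gene to gene: the standard deviation within groups, pooled over the 4 groups, was under 0.3 for 19 of the 37 genes, had a median of 0.28, and reached 1.31 for Nkd1.

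Promoter sequence was available for 29 of the 43 genes, with 41 transcription starts, from RefSeq on GRCm38.p6, and not for Lgr5 or Smoc2. A TCF site was searched as CTTTG followed by AA, AT, TA or TT, on both strands in the 250 bases before each start. It was found at 6 of the 41 starts (14.6%), against 4874 of 32851 starts in the whole table (14.8%). A half-site of the vitamin D receptor, which is A or G, then G, then G or T, then TCA, with no word in common with the TCF site, was searched on both strands and found at 21 of the 41 starts (51.2%), against 12694 of all 32851 (38.6%). 3 windows are shown, 5′ to 3′ on the strand of the gene and with TCF words in capitals: that of Ascl2 (chr7:142969265-142969514, minus strand), the stem cell gene called below, which holds no TCF word and no half-site; that of Tnfrsf19 (chr14:61037988-61038237, minus strand), the stem cell marker whose window has a TCF word, ATCAAAG at -202 from the start; and that of Sp5 (chr2:70474673-70474922, plus strand), a Wnt target with AACAAAG at -222 and CTTTGAT at -104.
Ascl2: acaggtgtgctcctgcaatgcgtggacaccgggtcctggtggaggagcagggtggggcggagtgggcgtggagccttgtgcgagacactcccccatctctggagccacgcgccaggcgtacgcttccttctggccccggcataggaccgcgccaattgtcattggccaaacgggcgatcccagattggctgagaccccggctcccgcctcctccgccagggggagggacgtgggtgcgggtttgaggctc
Tnfrsf19: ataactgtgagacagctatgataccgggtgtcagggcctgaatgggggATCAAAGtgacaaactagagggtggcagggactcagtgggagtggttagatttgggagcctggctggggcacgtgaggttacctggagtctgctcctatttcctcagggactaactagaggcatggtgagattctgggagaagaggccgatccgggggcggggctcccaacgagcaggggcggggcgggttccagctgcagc
Sp5: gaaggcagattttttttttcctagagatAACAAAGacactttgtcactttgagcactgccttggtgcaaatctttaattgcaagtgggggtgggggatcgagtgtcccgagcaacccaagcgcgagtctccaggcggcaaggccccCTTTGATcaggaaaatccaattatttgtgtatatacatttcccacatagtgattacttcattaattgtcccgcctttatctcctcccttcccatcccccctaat

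In wt organoids given calcitriol, 6 of the 11 measured stem cell markers had a difference from vehicle below 0 and 5 above, with a median of -0.038 on the log2 scale. The 4 lowest of them, Ascl2, Smoc2, Lgr5 and Tnfrsf19, were lower in each of the 3 mice, by 0.32 to 0.98 on average. Without a block for the mouse none of the 37 genes passed (0 calls by limma, Benjamini-Hochberg adjusted p under 0.05; 0.161% of all genes were called, and 3 of the 37 had an unadjusted p under 0.05, against 4.52% of all genes). With the mouse as a block, Ascl2 alone of the list fell (adjusted p = 0.0269), where 0.297% of all genes were called lower, 0.965% in either direction, and 8 of the 37 had an unadjusted p under 0.05, against 9.99% of all genes. Of the 37 genes 25 had a difference below 0, with a median of -0.11, while 13389 of 24245 genes did, with a median of -0.03. Scaled to the median of each array in place of the 75th percentile, which puts the median of all genes at 0.44, 6 of the 37 were below 0 and 25 were below that median; Lgr5, Sox9 and Cd44 then lay above 0, at 0.15, 0.032 and 0.13, and below the median of all genes.

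Ascl2 encodes a transcription factor of the crypt base stem cell and is itself a Wnt target. Its level was 3.80, 4.50 and 4.65 in VDR KO calcitriol (mice 1, 2 and 3), 3.88, 4.68 and 4.70 in VDR KO vehicle, 3.16, 3.96 and 4.13 in wt calcitriol, and 3.92, 4.59 and 4.50 in wt vehicle. Mouse 1 was the lowest of each group of 3, and because of this spread the wt groups overlapped, although each wt mouse was lower with the hormone, by 0.76, 0.63 and 0.37. The difference in wt was -0.59 (SE 0.32), 1.50-fold lower, with an adjusted p of 1.00 without the block. The blocked call was lost without wt mouse 1 or 2 (limma adjusted p = 0.210 and 0.234) or VDR KO mouse 1 or 2 (0.0518 and 0.0774), and the difference was -0.50 with slide as a block and -0.75 among the 7 arrays of the largest slide. In whole cultures, fewer stem cells and less RNA per stem cell cannot be told apart.

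Smoc2, a secreted matrix protein enriched in Lgr5-positive stem cells, had the lowest wt difference among the stem cell markers. Its level was 2.99, 3.42 and 3.37 in VDR KO calcitriol, 3.18, 3.46 and 3.29 in VDR KO vehicle, 2.50, 2.07 and 1.99 in wt calcitriol, and 2.98, 3.61 and 2.91 in wt vehicle. The 3 wt calcitriol arrays were the lowest of the 12 and overlapped with no other group. The wt difference was -0.98 (SE 0.21), 1.97-fold lower, and did not pass (limma adjusted p = 0.154, 0.0574 with mouse as a block, and 0.0365 with that block but without VDR KO mouse 3). It was -0.79 with slide as a block (adjusted p = 1.00) and -0.72 within the largest slide (0.812).

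Lgr5, the R-spondin receptor that marks the cycling stem cell, had levels of 3.77, 3.59 and 4.06 in VDR KO calcitriol, 3.79, 3.56 and 4.12 in VDR KO vehicle, 3.55, 3.10 and 3.00 in wt calcitriol, and 3.86, 3.32 and 3.44 in wt vehicle. The wt mice were lower with the hormone by 0.32, 0.22 and 0.44, and the groups overlapped through mouse 1. The difference was -0.32 (SE 0.21; limma adjusted p = 1.00, and 0.113 with the block), and -0.15 with slide as a block. Tnfrsf19 (Troy), a receptor expressed in stem cells and a Wnt target, averaged -4.46 ± 0.12 in wt calcitriol and -3.59 ± 0.46 in wt vehicle (SD, n = 3 each). Its difference was -0.86 (SE 0.32), did not pass (adjusted p = 1.00, and 0.339 with the block), and was -0.48 with slide as a block. Its other probe, well above background on 10 arrays, gave -0.79 in wt but 0.78 in VDR KO organoids, so the probes disagree in sign there. The remaining stem cell markers did not move together. Msi1, an RNA-binding protein of stem and progenitor cells, differed by 0.30 (-0.17 with slide as a block), Cdca7 by -0.14, Cdk6 by -0.04, the ion transporter Slc12a2 by 0.07, Prom1 by 0.02, and Lrig1, a brake on growth factor receptors, by 0.06. Rgmb, a BMP co-receptor, was well above background on no wt vehicle array and on all 3 wt calcitriol arrays, at least 1.02-fold higher there (adjusted p = 1.00). Its measured means were -4.86 in wt calcitriol and -6.06 in wt vehicle. Rgmb was bright enough to be tested through the wt calcitriol group alone, where it is high, so its values are given as a description. The reserve stem cell markers Bmi1, Hopx and Tert differed by 0.00, -0.14 and 0.19. In all, 6 of the 11 measured stem cell markers were lower in all 3 wt mice and 1, Rgmb, was higher. Of the 37 genes 14 were lower in all 3 mice and 4, Rgmb included, were higher, against 18.4% and 15.1% of all genes. The groups did not overlap for 4 genes that were lower, Smoc2, Tnfrsf19, Nkd1 and Ephb2, and for none that was higher, against 4.22% and 4.67% of all genes. Among the colon markers, Reg4, a product of deep crypt secretory cells, fell by 0.73 with mouse as a block (limma adjusted p = 0.0192, and 1.00 without the block). The colonocyte water channel Aqp8 differed by -1.12 (0.0574 with the block, 0.890 without) and the chloride exchanger Slc26a3 by -0.61 (0.242 and 1.00), while the mucin Muc2 differed by 0.34 and Car1 by 0.24. All 7 colon markers together summed to 209 to 283 in wt calcitriol and 196 to 220 in wt vehicle, and their part in the stem cell values was not tested.

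**Figure D1:**
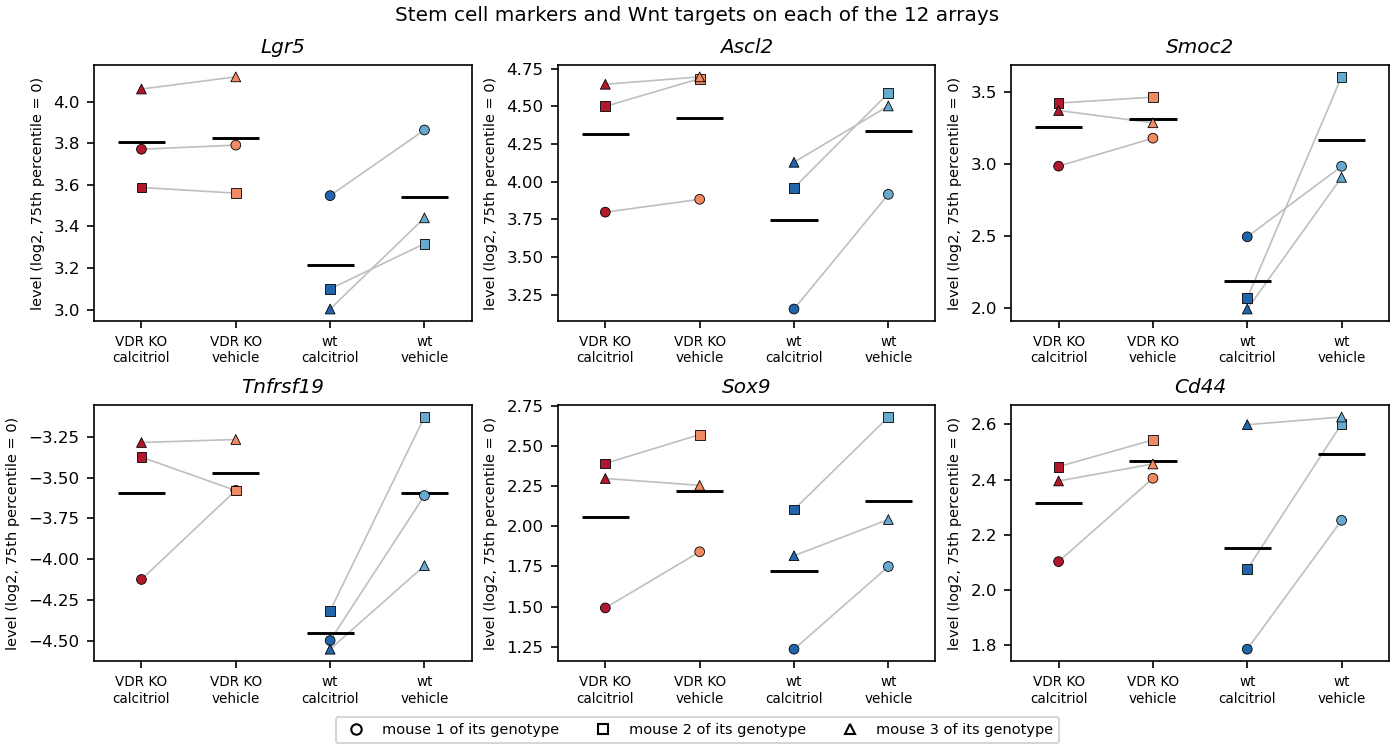
Levels of 6 stem cell and crypt base genes on each of the 12 arrays (y axis, log2 relative to the array's 75th percentile). Symbols are mice 1, 2 and 3 of each genotype, grey lines join the 2 arrays of a mouse and bars are group means (n = 3). Smoc2 is lowest on the 3 wt calcitriol arrays, at 1.99 to 2.50, and Ascl2 is lower with calcitriol in each wt mouse.

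Of the 8 Wnt target genes in wt organoids 7 had a difference below 0, with a median of -0.13, and none passed with or without the block. Sox9, a transcription factor of crypt base progenitors, had levels of 1.49, 2.39 and 2.30 in VDR KO calcitriol, 1.84, 2.57 and 2.25 in VDR KO vehicle, 1.23, 2.10 and 1.82 in wt calcitriol, and 1.75, 2.68 and 2.04 in wt vehicle. Each wt mouse was lower with the hormone, by 0.51, 0.58 and 0.22, and mouse 1 was again the lowest of every group. The Sox9 difference was -0.44 (SE 0.32; limma adjusted p = 1.00, and 0.149 with the block). Cd44, a hyaluronan receptor found on crypt base cells, had levels of 2.10, 2.45 and 2.40 in VDR KO calcitriol, 2.40, 2.54 and 2.46 in VDR KO vehicle, 1.78, 2.07 and 2.60 in wt calcitriol, and 2.25, 2.60 and 2.63 in wt vehicle. Its difference was -0.34 (SE 0.19; limma adjusted p = 1.00, blocked 0.339), and all 4 probes of the gene lay below 0, at -0.52 to -0.20. The wt groups overlapped because mouse 3 hardly differed (-0.03).

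Axin2, the scaffold of the beta-catenin destruction complex and a widely used readout of Wnt activity, was the 1 target with a difference above 0. Its level was 0.78, 1.02 and 0.24 in VDR KO calcitriol, 0.01, 0.25 and 1.16 in VDR KO vehicle, 0.73, 1.04 and 0.62 in wt calcitriol, and 0.07, 0.38 and 0.79 in wt vehicle. By the other Axin2 probe, mice 1 and 2 of both genotypes and wt mouse 3 were lower with the hormone, and VDR KO mouse 3 was higher. By the probe of the levels above, mice 1 and 2 of both genotypes were higher with the hormone and mouse 3 of both was lower. The wt difference was 0.38 (SE 0.30; limma adjusted p = 1.00) by this probe and -0.50 by the other Axin2 probe, so the probes disagree in sign. Myc, which drives growth and cell division, had levels of 2.97, 3.41 and 0.85 in VDR KO calcitriol, 3.44, 4.15 and 3.96 in VDR KO vehicle, 3.21, 3.20 and 3.66 in wt calcitriol, and 4.01, 3.78 and 3.48 in wt vehicle, a wt difference of -0.40 (SE 0.50; adjusted p = 1.00). Ccnd1 (cyclin D1) differed by -0.15, Sp5 by -0.11, and the crypt-sorting receptors Ephb2 and Ephb3 by -0.07 and -0.10. The Ephb2 groups did not overlap, since its 3 wt calcitriol arrays lay at 0.70 to 0.76 and its wt vehicle arrays at 0.78 to 0.82.

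Wnt inhibitors in wt organoids went in both directions and none passed. Nkd1, an intracellular feedback inhibitor that acts on Dishevelled, had the largest difference of the 37 genes, at a dim level. It measured -4.52, -5.35 and -1.94 in VDR KO calcitriol, -6.03, -5.64 and -3.18 in VDR KO vehicle, -6.21, -5.00 and -4.64 in wt calcitriol, and -3.68, -2.28 and -3.66 in wt vehicle. It was well above background on 3 VDR KO calcitriol, 1 VDR KO vehicle, 2 wt calcitriol and 3 wt vehicle arrays. It was thus bright enough to be tested through VDR KO calcitriol and wt vehicle alone, the groups where it is high. The wt groups did not overlap, and the difference was -2.07 (SE 0.92; limma adjusted p = 1.00, and 0.113 with the block), or -1.25 by its other probe. On the wt vehicle arrays that other probe read -5.20, -2.54 and -4.20. Notum, a secreted lipase that inactivates Wnt ligands, measured 2.53, 2.47 and 1.53 in VDR KO calcitriol, 0.98, 1.54 and 1.89 in VDR KO vehicle, 2.34, 2.44 and 2.29 in wt calcitriol, and 1.19, 1.26 and 2.59 in wt vehicle. It was 1.15 and 1.18 higher with the hormone in wt mice 1 and 2 and 0.30 lower in mouse 3, a difference of 0.67 (SE 0.38; adjusted p = 1.00). Rnf43 differed by 0.07, Znrf3 by -0.68 and Sfrp5, a secreted Wnt antagonist, by -0.38. The Znrf3 and Sfrp5 values rest mostly on wt mouse 2, whose vehicle array stood apart in its dim spots. In mice 1, 2 and 3 Znrf3 differed by -0.32, -1.62 and -0.10, and Sfrp5 by -0.22, -1.14 and 0.23.

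**Figure D2:**
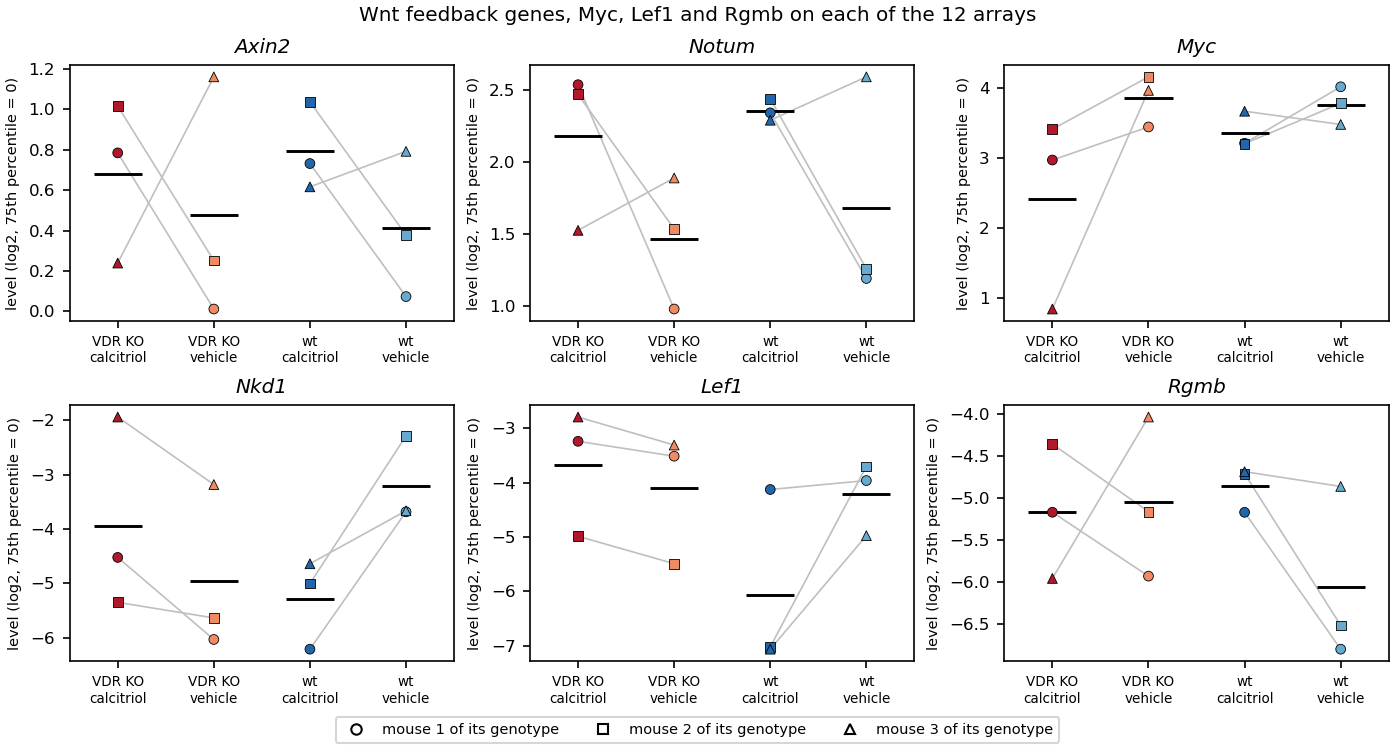
Levels of Axin2, Notum, Myc, Nkd1, Lef1 and Rgmb on each of the 12 arrays (y axis, log2 relative to the array's 75th percentile). Symbols are mice 1, 2 and 3 of each genotype, grey lines join the 2 arrays of a mouse and bars are group means (n = 3). By the probes shown, Axin2 and Notum are higher with calcitriol in mice 1 and 2 of both genotypes and lower in mouse 3 of both. The other Axin2 probe, not shown, does not have this pattern.

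Lef1 apart, the receptors, transducers and transcription factors differed by -0.24 to 0.25 in the wt comparison. Lgr4 differed by -0.20, the Wnt receptors Fzd5 and Fzd7 by -0.07 and -0.11, and Lrp5 and Lrp6 by 0.23 and -0.13. Ctnnb1, which encodes beta-catenin, differed by -0.04 (95% interval -0.34 to 0.25), and Apc, which holds it for breakdown, by -0.20, where a dimmer Apc probe gave -0.84. The value of that dimmer probe rests mostly on the vehicle array of wt mouse 2, at -2.19, against -4.33 and -3.56 in mice 1 and 3. Of the transcription factors, Tcf7l2 differed by 0.25 and Tcf7 by -0.24, where a dimmer Tcf7 probe gave -1.12. Lef1 was dim and scattered. It measured -3.24, -4.99 and -2.79 in VDR KO calcitriol, -3.51, -5.49 and -3.31 in VDR KO vehicle, -4.13, -7.02 and -7.07 in wt calcitriol, and -3.96, -3.70 and -4.98 in wt vehicle. It was well above background on 3 VDR KO calcitriol, 2 VDR KO vehicle, 1 wt calcitriol and 2 wt vehicle arrays, and its wt difference was -1.86 (SE 0.87; limma adjusted p = 1.00, and 0.304 with the block).

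**Figure D3:**
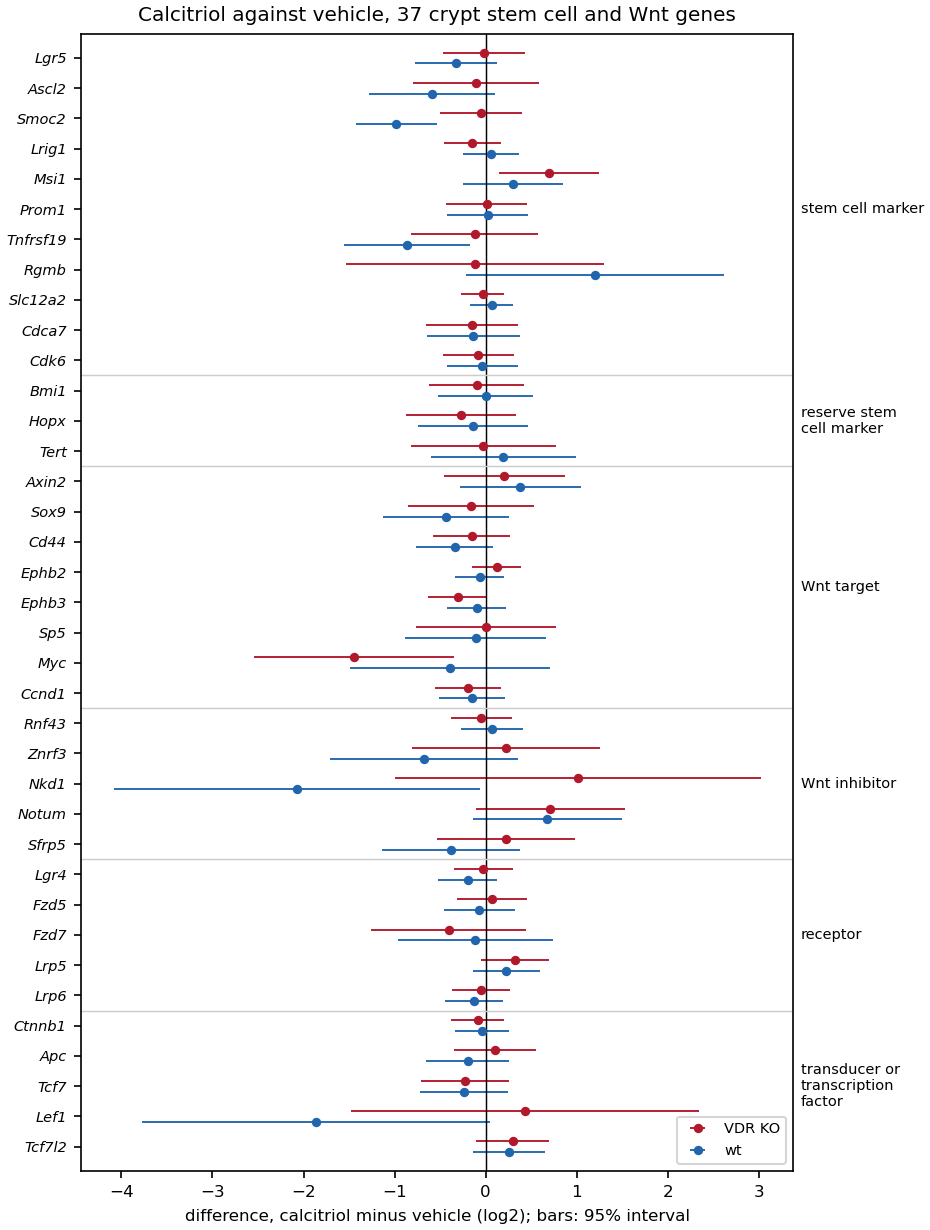
Difference between calcitriol and vehicle (x axis, log2) for the 37 genes by role, in VDR KO organoids (red) and wt organoids (blue), with 95% intervals of the fit without a block. In wt organoids 25 of 37 lie below 0 and in VDR KO organoids 23, and the widest intervals are those of Nkd1 and Lef1.

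Lgr5, Ascl2, Smoc2 and Tnfrsf19 were picked above as the stem cell markers lowest in wt organoids. In VDR KO organoids their differences between calcitriol and vehicle were within 0.12 of 0 on the log2 scale. This holds for the fit without a block and the probe that stands for each gene. All 11 measured stem cell markers ranged from -0.15 to 0.69 in that fit. Lgr5 differed by -0.017 (SE 0.21, 95% interval -0.47 to 0.43), Ascl2 by -0.11 (SE 0.32, -0.80 to 0.59), Smoc2 by -0.05 (SE 0.21, -0.50 to 0.40) and Tnfrsf19 by -0.12 (SE 0.32, -0.82 to 0.57). With slide as a block Lgr5 and Ascl2 lay at -0.40 and -0.42 there, and among the arrays of the largest slide at -0.44 and -0.55, while Smoc2 lay at -0.12 and -0.08. Tnfrsf19 lay at -0.52 and -0.48 in these 2 fits, and at 0.78 by its other probe. None of the 37 genes passed (0 calls by limma without and with the block), and neither did any of the 24245 genes (0%), while 2 of the 37 without the block and 4 with it had an unadjusted p under 0.05, against 5.75% and 8.01% of all genes. The difference was below 0 for 23 of the 37 genes, with a median of -0.05 against 0.04 over all genes, and scaled to the array median 31 were, where the median of all genes was -0.25. In all 3 mice 10 genes were lower and 4 higher, against 12.8% and 15.9% of all genes, and the groups did not overlap for Myc and Ephb3 (lower, 1.42% of all genes) and Sfrp5 (higher, 6.05%).

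The largest difference in VDR KO organoids was that of Myc, at -1.44 (SE 0.50; limma adjusted p = 0.842, and 0.576 with the block). It was lower in each mouse, by 0.47, 0.75 and 3.11, and the size rests on the calcitriol array of mouse 3, at 0.85. Nkd1 differed by 1.01 (SE 0.92) and was higher in each mouse, by 1.51, 0.29 and 1.24, but it was well above background on only 1 VDR KO vehicle array, and its difference was -1.37 with slide as a block and 0.19 by its other probe. Notum differed by 0.71 (SE 0.38; adjusted p = 0.849). Msi1 measured 2.01, 1.53 and 0.90 in VDR KO calcitriol, 0.62, 0.76 and 0.98 in VDR KO vehicle, 1.54, 1.48 and 1.31 in wt calcitriol, and 1.04, 0.88 and 1.51 in wt vehicle, a VDR KO difference of 0.69 (SE 0.25; adjusted p = 0.842). As for Notum, and for Axin2 by the probe that stands for it, Msi1 was higher with the hormone in mice 1 and 2 and lower in mouse 3. Ephb3 differed by -0.31, Hopx by -0.27 and Fzd7 by -0.41 (0.54 by its other, dimmer probe), and the other genes of the list by -0.22 to 0.43.

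The direct test of whether the hormone acted differently in the 2 genotypes, the VDR KO difference minus the wt difference, passed for none of the 37 genes (0 calls by limma; 0.0289% of all genes were called without the block and 0.239% with it, and 2 and 5 of the 37 had an unadjusted p under 0.05, against 3.39% and 8.03% of all genes). Smoc2 gave 0.93 (SE 0.29; adjusted p = 1.00, and 0.404 with the block), Ascl2 0.48 (SE 0.45; 1.00 and 0.375) and Lgr5 0.31 (SE 0.29; 1.00 and 0.543). With slide as a block these became 0.68, 0.08 and -0.25, and scaled to the array median, which puts the median of all genes at -0.69, Ascl2 lay at -0.28 and Lgr5 at -0.46. The dim genes Nkd1, at 3.09 (SE 1.30; 1.00 and 0.204), and Lef1, at 2.29 (SE 1.24; 1.00 and 0.579), had the highest values, which became -0.52 and 0.26 with slide as a block. Nkd1 gave 1.43 by its other probe. Rgmb is given no value here, since no wt vehicle array measured it well above background. Nkd1 and Lef1 were the 2 genes of the list that were lower in all 3 wt mice and higher in all 3 VDR KO mice, a pattern shown by 2.56% of all genes. Lef1 was bright enough to be tested through VDR KO calcitriol alone, where it is high. Nkd1 was so through VDR KO calcitriol and wt vehicle alone, its high groups. The values of Nkd1 and Lef1 and their shared pattern are therefore given as a description.

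**Figure D4:**
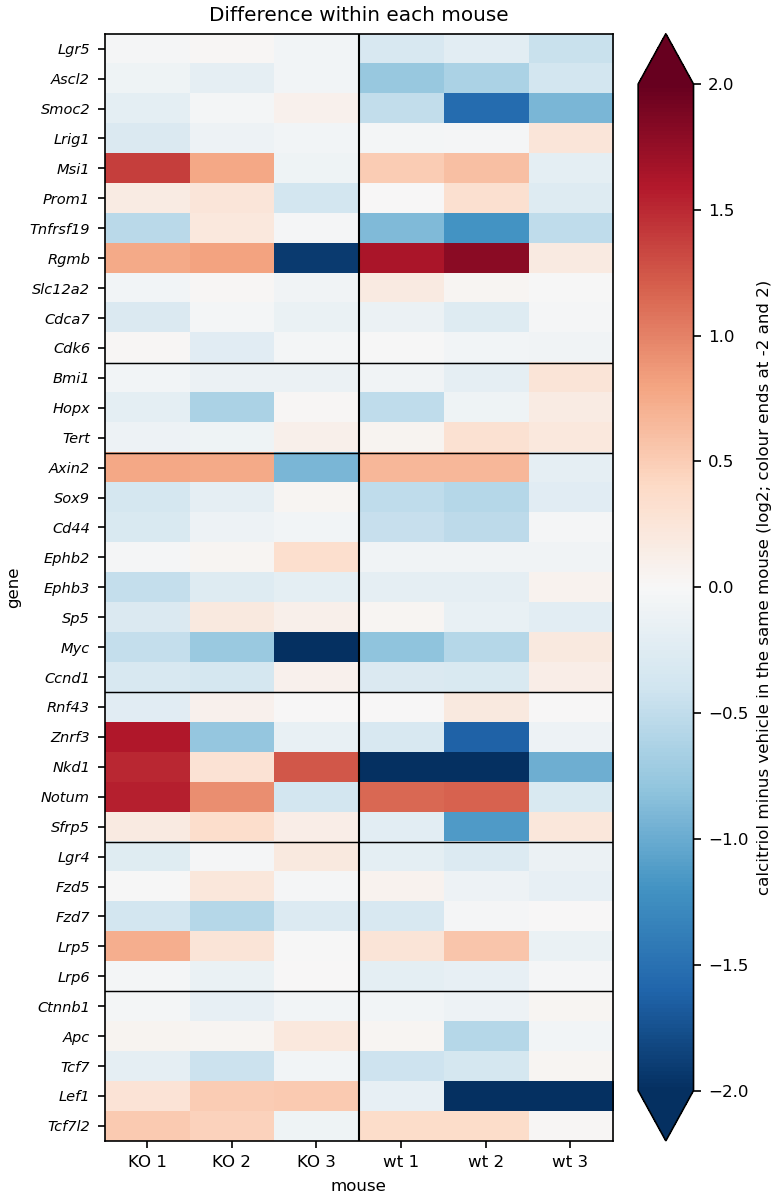
Calcitriol minus vehicle (colour, log2) in each VDR KO mouse (left) and each wt mouse (right) for the 37 genes, ordered by role. Each gene is shown by the probe that stands for it. Ascl2, Smoc2, Lgr5 and Tnfrsf19 are below 0 in all 3 wt mice. By these probes Axin2, Notum and Msi1 are above 0 in mice 1 and 2 of both genotypes and below 0 in mouse 3 of both.

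Without added hormone, loss of the receptor moved none of the 37 genes past the test (0 calls by limma without or with the replicate number as a block; 0.00412% and 0.0165% of all genes were called, and 0 and 4 of the 37 had an unadjusted p under 0.05, against 8.75% and 14.9% of all genes). The 11 measured stem cell markers differed by -0.35 to 1.02, the highest being Rgmb, which no wt vehicle array read as well above background. Lgr5 averaged 3.82 ± 0.28 in VDR KO vehicle and 3.54 ± 0.29 in wt vehicle (SD, n = 3 each), a difference of 0.28 (95% interval -0.17 to 0.73). Ascl2 differed by 0.09 (-0.61 to 0.78) and Smoc2 by 0.14 (-0.30 to 0.59). With slide as a block these 3 differences were 0.76, 0.44 and 0.31. Tnfrsf19 differed by 0.12, and by -1.32 by its other probe. Axin2 differed by 0.06 (-0.60 to 0.72). Among genes well above background on every array of the higher group the largest differences were those of Nkd1, at -1.74 (SE 0.92; adjusted p = 0.617; -0.30 by its other probe), Fzd7, at 0.40 (SE 0.39; 0.809), and Msi1, at -0.35 (SE 0.25; 0.708). The Nkd1 value is given as a description, since that gene was bright enough to be tested through wt vehicle and VDR KO calcitriol alone, its high groups. Fzd7, a Wnt receptor of intestinal stem cells, measured -0.83, -1.36 and -1.43 in VDR KO calcitriol, -0.46, -0.79 and -1.17 in VDR KO vehicle, -0.68, -1.40 and -1.88 in wt calcitriol, and -0.37, -1.37 and -1.88 in wt vehicle. Mouse 1 was the highest and mouse 3 the lowest of every group, and the other Fzd7 probe gave a difference in vehicle of -1.01. Scaled to the array median, which puts the median of all genes at 0.70 here, Msi1 lay at 0.41. The groups did not overlap for 1 gene that was higher, Ephb3, at 6.40 ± 0.07 in VDR KO vehicle and 6.08 ± 0.26 in wt vehicle (2.2% of all genes), and for 0 that were lower (5.97%).

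Under calcitriol, VDR KO organoids had more Smoc2 and more Ascl2 RNA than wt organoids, 2.11-fold and 1.48-fold. Both rose with the replicate number as a block (Smoc2 1.07, SE 0.18, limma adjusted p = 0.0237; Ascl2 0.57, SE 0.08, 0.0115), as did 0.33% of all genes, where 1.03% were called in either direction and 8 of the 37 had an unadjusted p under 0.05, against 7.77% of all genes. Without the block neither passed (0.0895 and 1.00; SE 0.21 and 0.32), 0 of the 37 were called, 0.206% of all genes were, and 4 of the 37 had an unadjusted p under 0.05, against 2.99% of all genes. Ascl2 was higher in the VDR KO mouse of each number, while the groups overlapped. Lgr5 differed by 0.59 (SE 0.21; 1.00, and 0.208 with the block), and its lowest VDR KO calcitriol array, at 3.59, was above its highest wt calcitriol array, at 3.55. Tnfrsf19 differed by 0.86 (SE 0.32; 1.00, and 0.429 with the block), but by 0.25 by its other probe. The groups did not overlap for 4 genes that were higher, Lgr5, Smoc2, Tnfrsf19 and Sfrp5 (3.66% of all genes), and for 1 that was lower, Lrig1 at -0.19 (3.73%). The call of Ascl2 under the block was lost without wt mouse 1 or 2 or any 1 of the 3 VDR KO mice (adjusted p = 0.0552 to 0.112), and that of Smoc2 without wt mouse 2 or 3 or any 1 VDR KO mouse (0.0639 to 0.187). Within the largest slide, which holds 2 VDR KO and 3 wt calcitriol arrays, the differences were 1.02 for Smoc2, 0.40 for Ascl2 and 0.46 for Lgr5.

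Outside the stem cell markers, Nkd1 differed between genotypes under calcitriol by 1.35 (SE 0.92; limma adjusted p = 1.00, and 0.806 with the block) and by 1.13 by its other probe. Lef1 was bright enough to be tested through the VDR KO calcitriol group alone, where it is high, so its difference of 2.40 (SE 0.87; 1.00 and 0.315) against wt calcitriol, with 1 array well above background, is given as a description. The Nkd1 difference is likewise a description, since that gene was bright enough to be tested through VDR KO calcitriol and wt vehicle alone, its high groups. Axin2 differed by -0.12 (95% interval -0.78 to 0.55) and by 0.28 by its other probe, Sox9 by 0.34 (-0.35 to 1.03), Cd44 by 0.16 (-0.26 to 0.59), Myc by -0.95 (-2.05 to 0.15), Notum by -0.18 (-0.998 to 0.64) and Ctnnb1 by -0.01 (-0.30 to 0.29). The vehicle comparison and this one are between the same mice, and each shares its arrays with the hormone comparisons, so their values are not independent of one another.

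**Figure D5:**
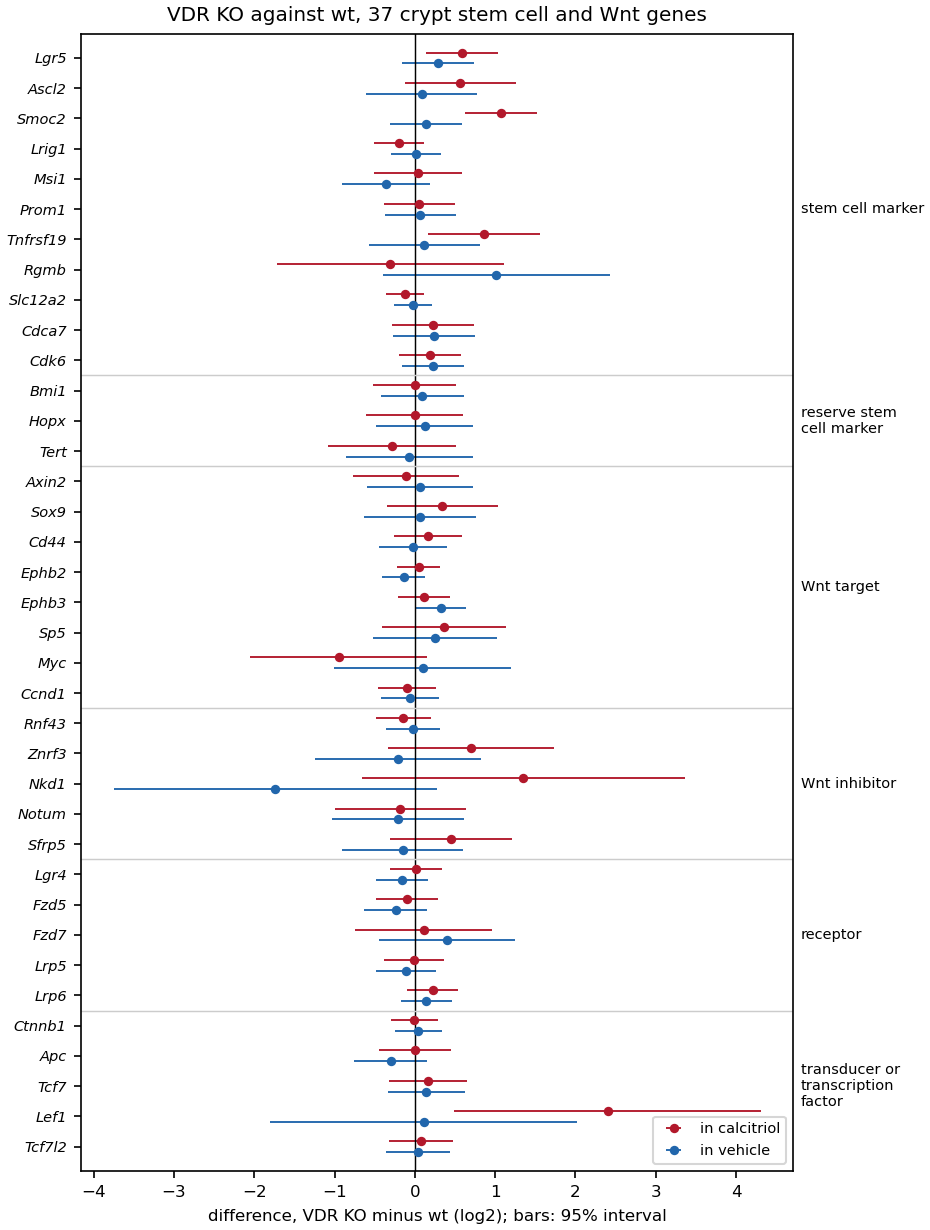
Difference between VDR KO and wt (x axis, log2) for the 37 genes by role, in calcitriol (red) and in vehicle (blue), with 95% intervals of the fit without a block. Smoc2 lies at 1.07 in calcitriol and at 0.14 in vehicle, and Nkd1 and Lef1 have the widest intervals.

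By the probes that stand for these genes, the levels of Axin2 and Notum differed between slides. In mice 1 and 2 of both genotypes the calcitriol array was on the largest slide and the vehicle array on another, in VDR KO mouse 3 it was the other way round, and in wt mouse 3 both were on the largest slide. Axin2 lay at 0.62 to 1.16 on the 7 arrays of the largest slide and at 0.01 to 0.38 on the other 5, and Notum at 1.89 to 2.59 and 0.98 to 1.54. By its other probe Axin2 lay at -3.16 to -2.58 on the largest slide and at -2.68 to -1.79 on the others, which overlap. Lrp5 (1.27 to 1.65, and 0.93 to 1.26) and Tcf7l2 (0.14 to 0.61, and -0.25 to 0.11), named here after their values were seen, were the other 2 of 37 genes higher on that slide without overlap, as were 6.1% of all genes; 0 of the 37 were lower without overlap, against 0.639% of all genes. By the other Tcf7l2 probes the levels overlapped between the largest slide and the others. With slide as a block the Axin2 difference was -0.28 in VDR KO and -0.03 in wt organoids, and that of Notum 0.68 in VDR KO and -0.10 in wt organoids. In wt mouse 3, whose arrays share a slide, Axin2 and Notum were lower with the hormone by 0.18 and 0.30, and Ascl2, Smoc2, Lgr5 and Tnfrsf19 by 0.37, 0.91, 0.44 and 0.51. The levels of every stem cell marker overlapped between the largest slide and the others, those of Msi1 narrowly (0.98 to 2.01, and 0.62 to 1.04). The part of the slides in the hormone differences was tested no further than by these fits. In wt mouse 3 23 of the 37 genes were below 0, against 53.1% of all genes.

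Differences between mice were also shared across groups. Ascl2, Cdca7, Sox9, Cd44, Sp5, Ctnnb1 and Tcf7 were lowest in mouse 1 in all 4 groups, 7 of 37 genes against 13.2% of all genes, and Lrig1, Prom1, Hopx, Tert, Rnf43 and Fzd7 were highest in mouse 1 in all 4, 6 of 37 against 10.4%. For Ascl2 the gap between mouse 1 and the next mouse of its group was 0.59 to 0.80, as large as the hormone difference in wt, 0.59. The 4 proliferation markers together summed to 66.4 to 82.9 in VDR KO calcitriol, 64.2 to 84.9 in VDR KO vehicle, 51.0 to 78.9 in wt calcitriol and 49.2 to 80.9 in wt vehicle, and Mki67 in wt differed by -0.01 between hormone and vehicle.

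A wider list of 72 other Wnt pathway genes (ligands, R-spondins, the remaining Frizzled receptors, Dishevelled and destruction complex proteins, co-repressors and antagonists) was read from the same fits. All 72 had a probe and 56 were tested, and none passed in any of the 5 comparisons without or with the block (0 calls by limma; 6 in wt, 5 in VDR KO, 2 for the difference between them, 7 between genotypes in vehicle and 4 in calcitriol had an unadjusted p under 0.05 with the block, against 9.99%, 8.01%, 8.03%, 14.9% and 7.77% of all genes). In wt organoids 36 of 56 were lower with calcitriol, with a median of -0.06, and in VDR KO organoids 33, with a median of -0.03. The lowest 2 in wt were Dact3, a Dishevelled antagonist, at -0.85 (SE 0.36; adjusted p = 1.00), and the ligand Wnt7a, at -0.65 (SE 0.59; 1.00). The highest 2 were the ligand Wnt5a, at 0.59 (SE 0.33; 1.00), and the co-repressor Tle2, at 0.56 (SE 0.26; 1.00). In wt mice 1, 2 and 3 Dact3 read -3.34, -3.67 and -3.67 with calcitriol and -3.51, -1.80 and -2.84 with vehicle. The Dact3 difference thus rests mostly on wt mouse 2, whose vehicle array stood apart in its dim spots, and mouse 1 was higher with the hormone. In VDR KO organoids the extremes were Fzd6 and Tle4, at -0.49 and -0.36, and Wnt11 and Lgr6, at 0.85 and 0.59. Between genotypes Apcdd1, a membrane inhibitor of Wnt signalling, was the lowest in calcitriol at -1.82 (SE 0.76; 1.00) and in vehicle at -1.53 (SE 0.76; 0.597), followed by Wnt7b at -0.56 and -0.86. Apcdd1 was dim, at -7.13 to -5.04 in VDR KO calcitriol and -5.87 to -5.63 in VDR KO vehicle. In wt calcitriol it lay at -4.83 to -3.68 and in wt vehicle at -5.98 to -2.67. The Apcdd1 differences are therefore given as a description. The highest between genotypes were Dact1 and Wnt10a in calcitriol, at 0.65 and 0.62, and Fzd4 and Csnk1e in vehicle, both at 0.39. For the difference between the hormone effects the extremes were Fzd6 and Ctnnbip1, at -0.40 and -0.34, and Dact3 and Wnt11, at 1.16 and 1.02. The Dact3 value again includes the vehicle array of wt mouse 2.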

How the data were processed

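Total RNA of 12 organoid cultures was hybridised, 1 culture to an array, with 100 ng labelled with Cy3, per the labels. The authors deposited scanner output of Agilent Feature Extraction 11.5.1.1, per the file headers, with the intensity of every spot in linear units. The processed intensity is background-subtracted and not normalised between arrays, and the array design is annotated on mm9. The files also hold, per the file headers, the raw median intensity of spot and background and other flags, such as well above background and outlier.

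Control and outlier spots were left out, and log2 of the processed intensity was taken minus the array's 75th percentile. Spots of a probe were averaged, and 163 probes with missing values were dropped. A probe was kept where some group had it well above background on each of its 3 arrays (33410 of 55681). Symbols came from RefSeq accessions (GRCm38.p6 table, names only; 28026 probes matched), and the probe with the highest mean stood for a gene, which gave 24245 genes. Of the 43 genes examined, 26 had 1 probe and 16 several.

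The 4 group means were fitted to all 12 arrays with limma 3.58.1 in R 4.3.3 (lmFit, eBayes with a variance trend). Tests were 2-sided, with Benjamini-Hochberg adjustment over the 24245 genes and a threshold of 0.05. "Well above background on no array of a group" gives a fold only as a bound, the brighter group's mean against, per array, the higher of the dim probe's signal and the lowest signal well above background. In a second fit the mouse was a block, since each animal gave a calcitriol and a vehicle culture (deviations from the group means correlated at 0.25, 0.59 and 0.10 in VDR KO and 0.57, 0.32 and 0.32 in wt mice). Between genotypes the replicate number, which stands for separate animals with the same sex and age labels, was the block (correlations 0.64, 0.13 and 0.40 in vehicle, 0.41, 0.40 and 0.34 in calcitriol). The number of arrays limits the precision.

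The genes and lists were chosen with earlier results of these data known. Values on every array are given for genes called in either fit, for the 3 largest differences per comparison among genes that every array of the brighter group read as well above background, and for Lgr5, Ascl2, Axin2, Smoc2, Sox9, Cd44 and Myc. Of the wider Wnt list the highest and lowest 2 per comparison are named. Alternatives were another scaling (array median, quantile), normexp background correction with an offset of 50, no filter on dim probes, the mean over probes, no variance trend, only the groups compared, slide as a block, the largest slide alone, and each replicate left out.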

Additional observations from a re-analysis of the deposited data

How the results depend on the processing

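For the 28 pairs of a gene and a comparison with a stated direction, 18 of 778 values under the alternatives had the opposite sign, 6 of them from scaling to the array median, which shifts all genes alike (their median to 0.44 in wt, -0.69 for the difference between genotypes and 0.70 in vehicle), and for 37 pairs with smaller differences 118 of 1029 did. With the replicate block, paired by mouse or by number, 1 gene of the list was called between hormone and vehicle in wt organoids (Ascl2) and 2 between genotypes in calcitriol (Ascl2 and Smoc2); it changed no other call of the list. With an array or mouse left out, 0 to 2 and 0 to 1 genes were called in these comparisons, and 0 in the other 3. The count of genes below 0 was 24 to 27 in wt with 1 left out (25 with all), 6 when scaled to the array median, and 16 to 26 in VDR KO (23 with all). Opposite signs in wt were Rgmb with normexp (-0.020) and, scaled to the array median, Lgr5 (0.15), Sox9 (0.032) and Cd44 (0.13). In VDR KO they were Nkd1 blocked by slide (-1.37) and among arrays of the largest slide (-1.76), and Fzd7 in that slide (0.070) and as a mean over probes (0.067). For the difference between genotypes they were Lgr5 blocked by slide (-0.25), among arrays of the largest slide (-0.22) and scaled to the median (-0.46), Nkd1 blocked by slide (-0.52) and in that slide (-0.13), and Ascl2 scaled to the median (-0.28). In vehicle they were Nkd1 blocked by slide (1.26) and among arrays of the largest slide (0.48), Msi1 scaled to the median (0.41) and Fzd7 as a mean over probes (-0.30). The causes were not tested. Over all genes, wt calls numbered 39, or 234 with the replicate block, 70 scaled to the median, 20 with only the 2 groups, 6 blocked by slide, 3 among arrays of the largest slide and 13 to 37 with 1 array left out. Between genotypes in calcitriol they numbered 50, or 249 with the block, 16 in that slide and 25 to 56 with 1 array left out. For the difference between genotypes they numbered 7, or 58 with the block, 21 scaled to the median, 12 with quantile scaling, 11 with normexp, 2 in that slide and 1 blocked by slide. In vehicle they numbered 1, or 4 with the block, 3 without a variance trend, 2 scaled to the median and 0 blocked by slide, in the largest slide or with only the 2 groups. Nkd1, Lef1, Rgmb and Sfrp5 were not well above background on every array, which limits their values.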
